A study of Corylus heterophylla with 6 samples.

Results

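ChARF3 binding in hazel ovules at rapid ovule growth, the stage called Ov3.1, is described here from the deposited list of peaks for that stage. All rows of that list were taken, which gave 893 peaks of the 3669 peaks in the series. A peak is a stretch of the genome where the fragments pulled down by the antibody exceeded the background. The list came from 1 ChIP library, called against 1 input library that received no antibody. Both libraries were made from *Corylus heterophylla* ovules. Only ovules of medium size were kept, and they were fixed in 1% formaldehyde. By the methods of the study, their chromatin was sheared by sonication to lengths of 200 to 600 bp. A footnote of the study instead describes the input as DNA from before shearing. The antibody was polyclonal, and its antigen was a peptide covering ChARF3 residues 1 to 380. The labels give the plants as wild germplasm, whereas the methods of the study name a hybrid cultivar, Dawei. The lists of early ovule growth (Ov2.1, 1364 peaks) and of ovule formation (Ov1.1, 1412 peaks), each from 1 ChIP and 1 input library made in the same way, were used only as references. With 1 ChIP library there was no replicate check of any value, and no test between stages was made. The 95% intervals given here (exact Poisson for numbers, exact Clopper-Pearson for shares, order statistics for medians) cover counting error only. A peak list holds no marker of a tissue, so the label of the stage could not be checked against the data.

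Auxin response factors are plant transcription factors that bind DNA elements in the promoters of auxin-regulated genes. Their activity is restrained by Aux/IAA proteins, which are degraded when auxin is perceived. Some members of the family activate transcription and others repress it. The hazel genes were numbered by their chromosomal place, so ChARF3 is not to be taken for the counterpart of ARF3 (ETTIN) of *Arabidopsis thaliana*. In the phylogeny of the study it stands in the class of the repressing members, which also holds ARF2 of *A. thaliana*. Within that class its branch held a peach and a grape protein, but none of *A. thaliana* or rice. ChIP-Seq shows where such a factor, or a complex that holds it, was cross-linked to DNA in the tissue sampled, and by itself it does not show whether a nearby gene was regulated.

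No genome sequence was used here, so the bases under the peaks are not shown and no motif was searched. The study compared sequences around the peaks with motifs of known factors, and the one it gives for ChARF3 is listed under ARF2. The unambiguous letters of this motif are shown because they are the element looked for, and the 3 positions after them allow more than 1 base. Capitals mark the TGTC core that ARF proteins bind, with the GG that follows it.
ARF2 motif, first 7 letters: tTGTCGG

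The Ov3.1 peaks were spread over the assembly. They lay on 231 contigs, of 323 contigs that held a peak in any of the 3 lists. Of these, 82 contigs had 1 peak, 89 had 2 to 5, 47 had 6 to 10 and 13 had more than 10, and the median was 2 peaks per contig. The 13 contigs with more than 10 peaks held 206 of the 893 peaks. The largest numbers were 22 peaks on tig00007002, 21 on tig00007112, 21 on tig00007370 and 20 on tig00007282. Without tig00007282 the list had 873 peaks on 230 contigs. In the list the peak numbers ran to 895, and numbers 56 and 306 were absent from it.

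Contigs with a longer span of listed peaks had more Ov3.1 peaks. The files give no contig lengths, so the largest coordinate seen on a contig in any list was taken as its span, which is a lower bound. The spans summed to 307.9 Mb, and over them there were 2.90 Ov3.1 peaks per Mb, or 2.86 without tig00007282. Of 96 contigs with a span of 1 Mb or more, 95 had an Ov3.1 peak, and the exception was tig00007151. The contigs with an Ov3.1 peak had a median span of 0.741 Mb, against 0.109 Mb for the 92 contigs without one. Across the 96 longer contigs the number of peaks followed the span with a Pearson r of 0.72 and a Spearman rho of 0.72, which is a description of contigs within 1 library. The span ends at a listed peak, Ov3.1 peaks included, so a contig with more peaks can get a longer span. These medians and correlations are therefore partly built in. The density had a median of 2.51 peaks per Mb and quartiles of 1.98 and 3.73. Contig tig00007282 ranked first with 8.67 peaks per Mb over a span of 2.31 Mb, followed by tig00007306 with 6.75 and tig00007105 with 6.24. This rank counts every listed peak, and 8 of the 19 gaps on tig00007282 were of at most 1 kb. Merging peaks within 1 kb lowered the share of tig00007282 from 2.24% to 1.36% of all peaks, so its first rank depends on how close peaks are counted. The 3 contigs with at least as many peaks as tig00007282 had spans of 4.88 to 6.94 Mb and densities of 3.17 to 4.30.

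**Figure D1:**
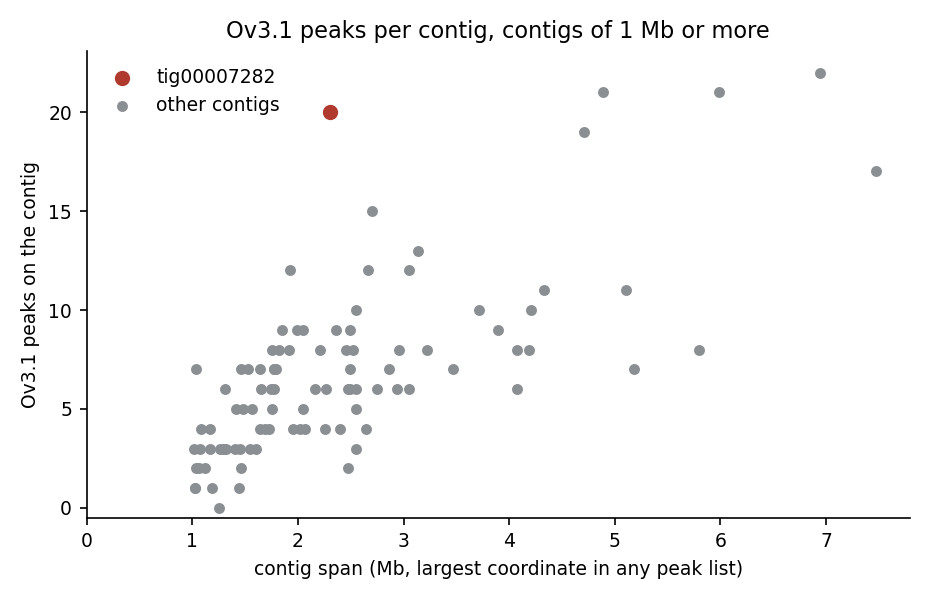
Number of Ov3.1 peaks on each of the 96 contigs with a span of 1 Mb or more, against the span in Mb (the largest coordinate in any list). Each point is a contig. Contig tig00007282, in red, had 20 peaks on 2.31 Mb and lay above contigs of like span.

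Within the longer contigs the peaks lay along the whole span. Of the 657 Ov3.1 peaks on those 96 contigs, 23.0% (19.8% to 26.4%) lay in the first 20% of the span, 17.2% (14.4% to 20.3%) in the middle 20% and 21.8% (18.7% to 25.1%) in the last 20%. The interval of the first overlapped that of the middle. The end of the span is itself the end of a listed peak, which adds a peak to the last 20% of each contig whose last peak was from Ov3.1.

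Neighbouring Ov3.1 peaks were usually far apart. The 662 gaps between neighbours on a contig had a median of 183235 bp (156266 to 213207), with quartiles of 61878 and 377214 bp. The longest gap was 3312005 bp and the shortest 308 bp. Without tig00007282 the median was 191128 bp (162939 to 221846) over 643 gaps, and the shortest gap was 490 bp. On tig00007282 itself the median of the 19 gaps was 3499 bp. Single, widely spaced peaks were thus the usual form of the list, unlike those of tig00007282. The median gap at Ov3.1 was longer than in the reference lists, against 134723 bp at Ov2.1 and 98628 bp at Ov1.1, lists with more peaks on 259 and 273 contigs.

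Close pairs were few. Of the 893 peaks, 72 had a neighbour within 10 kb (8.06%, interval 6.36% to 10.05%), and without tig00007282 these were 57 of 873 (6.53%, 4.98% to 8.38%). On tig00007282 they were 15 of 20 (75%). At Ov3.1 the share was 8.06%, against 9.46% (7.96% to 11.1%) at Ov2.1 and 19.5% (17.4% to 21.6%) at Ov1.1. The reference lists held more peaks (1364 and 1412), which can bring neighbours closer, and the shares were not tested between stages. The close peaks formed 32 runs, namely 29 pairs, 2 triples and 1 run of 8. Of the 4 runs on tig00007282, 2 were pairs, 1 was a triple and 1 was the run of 8. On all other contigs together there were 27 pairs and 1 triple. That triple spanned 8586 bp on tig00006985, from 2900422 to 2909007, and its fold enrichments of 3.42 to 4.54 were those of common single peaks. Of the 10 gaps of at most 1 kb, 8 lay on tig00007282. The other 2 lay on tig00006886 (756 bp) and tig00006931 (490 bp).

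**Figure D2:**
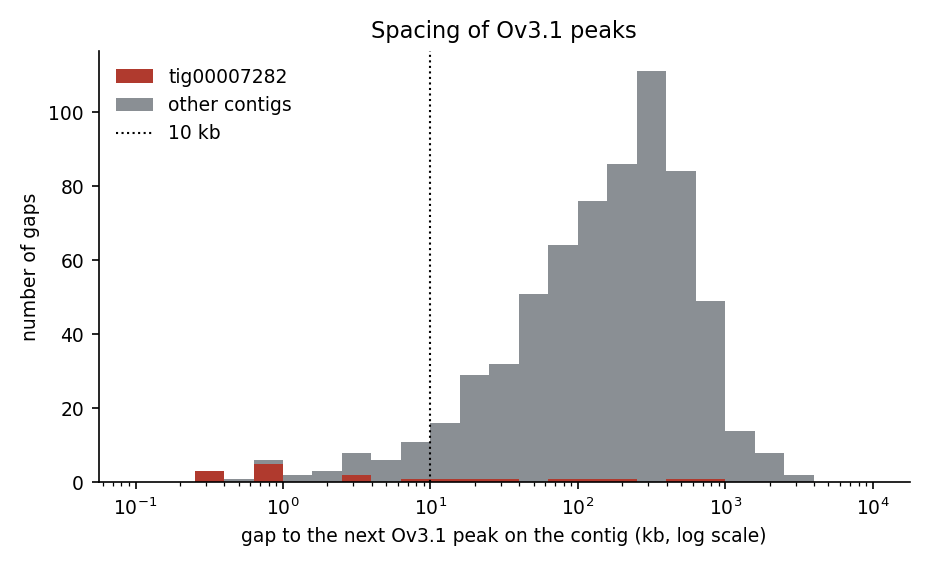
Gaps between neighbouring Ov3.1 peaks on a contig, in kb on a log axis, as a histogram of 662 gaps with those of tig00007282 in red and those of other contigs in grey. The dotted line marks 10 kb, with 40 gaps at or below it, of which 11 were on tig00007282.

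Most peaks were about as wide as 1 sheared fragment. The median width was 333 bp (325 to 339), with quartiles of 296 and 392 bp and a range of 272 to 2746 bp. Without tig00007282 the median was 331 bp and the widest peak 1498 bp. In all, 94 peaks (10.5%, 8.59% to 12.7%) were wider than 500 bp and 8 were wider than 1000 bp, of which 3 lay on tig00007282. The widest peak was tig00007282:1384574-1387319 with 2746 bp, followed by tig00007282:1391444-1393286 with 1843 bp and tig00007109:1061869-1063366 with 1498 bp. The Ov3.1 median of 333 bp stood against 454 bp (441 to 466) at Ov2.1 and 330 bp (324 to 336) at Ov1.1. The narrowest peak also differed between lists, with 272 bp at Ov3.1, 319 bp at Ov2.1 and 245 bp at Ov1.1. Widths were not tested between lists, so these medians are not read as a difference between stages.

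The strength of a peak was given by its fold enrichment, the ratio of ChIP fragments to the background at the summit, each with 1 added, and by its q-value, the p-value after correction for the many places tested. The median fold enrichment was 3.63, with quartiles of 3.46 and 4.36. Of the 893 peaks, 331 (37.1%) had a fold enrichment of 4 or more and 527 (59%) a q-value of 0.01 or less. At a q-value of 0.001, 179 peaks were left (20.04%). The authors' own threshold was a q-value of 0.05, and the weakest peak had a -log10 q of 1.32. The 5 peaks with the highest fold enrichment were tig00007282:1428017-1428429 (11.4), tig00007109:1061869-1063366 (9.98), tig00007282:1492701-1493051 (8.78), tig00007282:1500258-1501530 (8.55) and tig00007111:5059752-5060038 (7.89). By -log10 q the first 5 were tig00007282:1428017-1428429 (51.9), tig00007282:1384574-1387319 (44.0), tig00007282:1391444-1393286 (40.1), tig00007282:1426541-1427260 (14.9) and tig00007109:1061869-1063366 (13.3). Contig tig00007282 held 9 of the 10 highest by -log10 q and 4 of the 10 highest by fold enrichment. Outside it the highest -log10 q was that of the tig00007109 peak, and 1 of the 10 highest lay there.

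The depth behind a peak was small nearly everywhere. Each pair of fold enrichment and p-value was solved for the whole number of fragments at the summit and for the background, and all 893 pairs were met within 0.01 on the -log10 p scale. Of the peaks, 530 (59.4%, 56.0% to 62.6%) rested on 3 fragments, 231 on 4, 116 on 5 to 9 and 16 on 10 or more. None rested on fewer than 3. At the lowest background, 0.102 fragments, stood 175 peaks (19.6%). At this background 3 fragments gave a fold enrichment of 3.63, 4 gave 4.54 and 5 gave 5.44, so that 1 more fragment moved a peak past the 4-fold limit. Of the 16 peaks with 10 or more fragments, 15 were on tig00007282. The remaining one was the tig00007109 peak, with 10 fragments on a background of 0.102. All 13 peaks with a background above 1 fragment were on tig00007282. Median fragment numbers were 3 at Ov3.1, against 4 at Ov2.1 and 17 at Ov1.1. The fragments behind a peak thus differed between lists, and the numbers of peaks were not read as a difference between stages. The read totals of the libraries, which the study tabulates, were not used here.

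**Figure D3:**
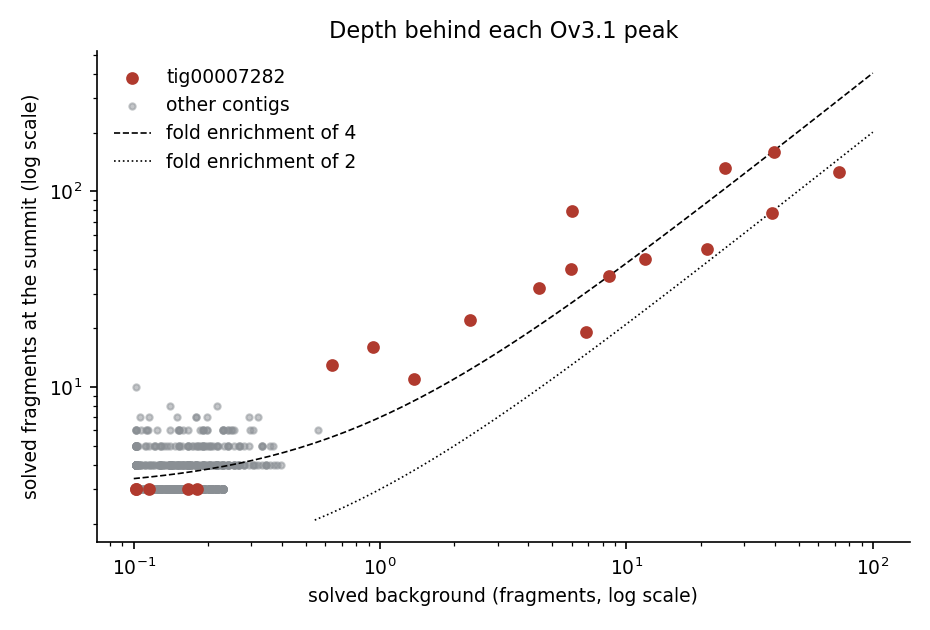
Solved fragments at the summit against solved background for the 893 Ov3.1 peaks, both on log axes, with peaks of tig00007282 in red and of other contigs in grey. The dashed and dotted lines join values of 4-fold and 2-fold enrichment. Peaks of other contigs lay at 3 to 10 fragments, and 15 peaks of tig00007282 at 11 to 159.

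The 20 peaks of tig00007282 were 2.24% of the list (1.37% to 3.44%) and 4.13% of the bases in peaks. They did not lie evenly along the contig. A stretch of 139768 bp, tig00007282:1370813-1510580, held 15 of them. The gap before it was 764668 bp and the gap after it 105689 bp. Peaks covered 8.99% of the stretch, and the gaps within it had a median of 854 bp and a range of 308 to 64271 bp. On the other contigs, no stretch of the same length held more than 5 Ov3.1 peaks. This stretch was delimited after its values had been seen, by joining peaks with gaps of up to 100 kb.

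Within the stretch both the fragments and the background were high. The 15 peaks had 11 to 159 fragments (median 40) over backgrounds of 0.638 to 72.8 (median 6.83). Their fold enrichments had a median of 5.05 and ran from 1.72 to 11.4, and their widths had a median of 572 bp. The 5 peaks of the contig outside the stretch were like those of the rest of the list, with 3 fragments each, fold enrichments of 3.39 to 3.63 and widths of 275 to 352 bp. The stretch held the highest fold enrichment of the list and also the lowest. Its 4 peaks with fold enrichments of 1.72, 1.98, 2.35 and 2.56 were below every peak of the other contigs, whose lowest value was 3.25. They were listed with 126, 78, 51 and 19 fragments on backgrounds of 72.8, 38.8, 21.2 and 6.83. What part the high background had in the calls of this stretch was not tested.

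The peaks of the stretch fell into groups along it. At its near end lay tig00007282:1370813-1371432, with 22 fragments and a 6.95-fold enrichment, and tig00007282:1372207-1372646, with 11 fragments and 5.05-fold. The triple followed, with 132 fragments and 5.07-fold in the widest peak, 78 and 1.98-fold in tig00007282:1388254-1388782, and 159 and 3.95-fold in tig00007282:1391444-1393286. The third group was the pair of tig00007282:1426541-1427260, with 40 fragments and 5.88-fold, and tig00007282:1428017-1428429, with 79 fragments and 11.4-fold. The run of 8 closed the stretch, between 1492701 and 1510580, with 13 to 126 fragments and fold enrichments of 1.72 to 8.78. Fold enrichment did not follow the number of fragments within the stretch, since the peak with the most fragments (159) had 3.95-fold and the peak with 13 had 8.55-fold.

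The stretch was also occupied in the Ov2.1 list. It held 15 peaks at Ov3.1, against 14 at Ov2.1 and 0 of the 8 peaks of the contig at Ov1.1. Past its far end lay the Ov1.1 peak with the highest -log10 q of that list (182), with 1053 fragments on a background of 363. The middle of this Ov1.1 peak was 153 kb from that of the Ov3.1 peak highest by -log10 q. All 15 Ov3.1 peaks shared bases with an Ov2.1 peak, and 10 Ov2.1 peaks were met in this way. Each of the 15 had a lower fold enrichment than the Ov2.1 peak it overlapped, as at tig00007282:1428017-1428429, with 11.4 at Ov3.1 against 28.5 at Ov2.1. Each also had fewer fragments, with 79 at Ov3.1 against 101 at Ov2.1 at the same place. The median background of the peaks in the stretch was 6.83 fragments at Ov3.1, against 3.08 at Ov2.1. The fold enrichments are ratios to the own input of each stage. Fragments and backgrounds are counts not adjusted for the depth of each list, and fold enrichment, computed from them with 1 added to each, also depends on that depth. The lowest background was 0.102 fragments in the Ov3.1 list and 0.195 in the Ov2.1 list. Neither fewer fragments nor a lower fold enrichment is therefore read as weaker binding. An Ov2.1 peak that overlapped several Ov3.1 peaks was set against each of them with the value of its single summit. None of these values was tested between libraries. The closest genes, as annotated by the authors for the overlapped Ov2.1 peaks, were Cor0087690.1, Cor0087710.1, Cor0087730.1, Cor0087740.1 and Cor0087750.1. The class of the overlapped Ov2.1 peak was promoter within 1 kb for 9 of the 15 peaks. For tig00007282:1498898-1499886 and tig00007282:1500258-1501530 the class was the last exon of Cor0087730.1. For the strongest pair it was distal intergenic. No gene name is attached to these identifiers in the files used here.

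**Figure D4:**
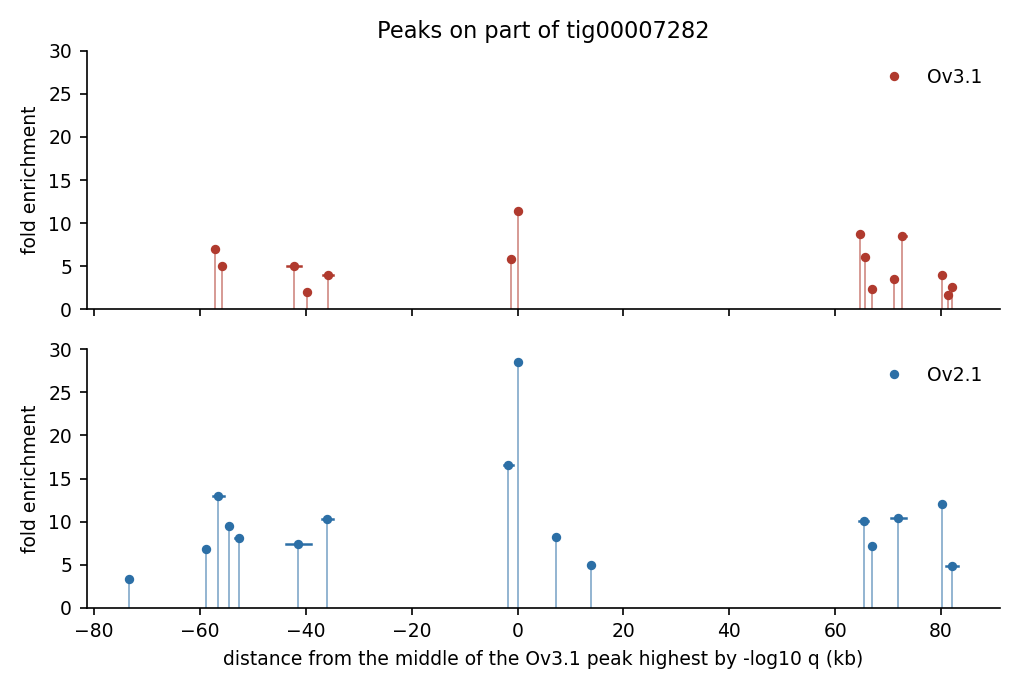
Fold enrichment of peaks on part of tig00007282 in the Ov3.1 list (red, above) and the Ov2.1 list (blue, below), against the distance in kb from the middle of the Ov3.1 peak highest by -log10 q. Dots are peak middles and horizontal bars peak widths. The 15 Ov3.1 peaks reach 11.4-fold, and each overlaps an Ov2.1 peak with a higher value.

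Elsewhere the Ov3.1 peaks rarely met those of the other stages. In all, 19 Ov3.1 peaks (2.13%, 1.29% to 3.30%) shared at least 1 bp with an Ov2.1 peak, which made up 1.03% of the Ov2.1 list (14 peaks). Without tig00007282 this was 4 of 873 (0.458%, 0.125% to 1.17%). These 4 lay on tig00002066, tig00006992, tig00007297 and tig00007354. Their Ov3.1 fold enrichments were 4.41, 3.51, 5.44 and 4.54, against 3.24, 5.68, 3.31 and 4.18 in the Ov2.1 list. These values also depend on the depth of each list and were not tested between lists. At tig00007354 both peaks had 4 fragments, each on the lowest background of its list (0.102 and 0.195). With Ov1.1 peaks, 3 Ov3.1 peaks were shared (0.336%, 0.0693% to 0.979%), which made up 0.212% of the Ov1.1 list. They lay on tig00000103, tig00006969 and tig00007215 with Ov3.1 fold enrichments of 4.24, 3.32 and 6.35. The median distance of an Ov3.1 peak to the nearest Ov2.1 peak of its contig was 76481 bp, and to the nearest Ov1.1 peak 86198 bp, each over 843 peaks. The contigs themselves were mostly shared, since 178 of the 231 contigs with an Ov3.1 peak had peaks in all lists and 9 had Ov3.1 peaks only.

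For this stage the study drew up a list of genes close to a peak whose transcript levels changed in the direction opposite to that of *ChARF3*. It was chosen with these libraries and with expression data not used here, so it is no independent evidence of binding. All 43 genes were joined to a deposited peak by contig, start and end. Their peaks lay on 39 contigs, and 0 were on tig00007282, so every value below is the same with and without that contig. Of the 43 peaks, 16 had a fold enrichment of 4 or more (37.2%, 23.0% to 53.3%), against 37.1% of all 893 peaks. By q-value 20 of the 43 were at 0.01 or less (46.5%, 31.2% to 62.3%), against 59% of all peaks. The fold enrichments had a median of 3.55, against 3.63 in the whole list, and a range of 3.25 to 6.04. In fragments, 26 of the 43 peaks rested on 3, 12 on 4 and 5 on 5 or more. The peaks at the listed genes were thus like the rest of the list in strength, and 3 of the 43 had a neighbour within 10 kb. None shared bases with an Ov2.1 or an Ov1.1 peak. Such overlaps were rare in all 873 Ov3.1 peaks outside tig00007282, with 0.458% for Ov2.1 and 0.344% for Ov1.1. Their absence among 43 peaks is therefore not read as a trait of the listed genes. By the authors' classes 20 of the peaks were in promoters, 15 were distal intergenic, 5 were downstream of a gene, 2 in exons and 1 in an intron. A gene listed for a distal intergenic peak is its closest gene and may lie far from it.

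Of the 9 listed genes of transcription and auxin response, 4 had a peak of 4-fold or more (44.4%, 13.7% to 78.8%), against 37.1% of all peaks. *IAA4* (Cor0140470.1) belongs to the Aux/IAA repressors that bind ARF proteins. Its peak, tig00007130:285295-285758, lay downstream of the gene with a 4.38-fold enrichment on 4 fragments. *AGL61* (Cor0063970.1), named DIANA in *A. thaliana* and needed there for the central cell of the embryo sac, had a distal intergenic peak, tig00006949:671318-671708, with 4.50-fold on 4 fragments. *WRKY65* (Cor0025580.1), of the WRKY factors, had a downstream peak, tig00007370:1784639-1785124, with 4.11-fold on 4 fragments. *RSS3* (Cor0010930.1), a nuclear factor of jasmonate response in rice, had a promoter peak, tig00007112:3203967-3204269, with 4.72-fold on 5 fragments. No other gene of this group rested on more than 3 fragments. *LFY* (Cor0126310.1), the LEAFY regulator of floral meristem identity, had a distal intergenic peak, tig00006868:172970-173339, with 3.45-fold and a q-value of 0.0176. *bZIP18* (Cor0161920.1), a bZIP factor, had a promoter peak, tig00007269:803614-803979, with 3.63-fold and a q-value of 0.00959. The *MYB61* gene (Cor0075250.1), an R2R3-MYB factor, had its peak, tig00007163:188795-189172, in its last exon with 3.49-fold. *HMGB6* and *HMGB7*, which encode chromatin proteins with a high mobility group box, had 3.40-fold (downstream) and 3.36-fold (promoter).

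The 8 genes of cell division and DNA repair had peaks below the median fold enrichment of the list, with 0.56% to 46.1% of all peaks below them. Each rested on 3 fragments, as did 59.4% of all peaks. In the whole list, peaks on 3 fragments had fold enrichments of 3.25 to 3.63, so they could neither exceed the median nor reach 4-fold. The low values of the 8 peaks are thus not separate findings from their 3 fragments. Of the 8, 0 reached 4-fold (which allows a share of up to 36.9%), against 37.1% of all peaks. Their fold enrichments had a median of 3.48 and a range of 3.25 to 3.62. Cyclins of the D type drive entry into S phase, and *CYCD3-3* (tig00002110:249213-249635) had 3.48-fold and *CYCD1-1* (tig00007249:649098-649389) 3.62-fold. *CYCA2-2*, a cyclin of the later cell cycle, had 3.52-fold at tig00007317:548877-549242. The kinesins, motors that move along microtubules, had 3.36-fold at *KIN-14I*, 3.47-fold at *KIN-8A* and 3.25-fold at *KIN-10A*, a motor of the phragmoplast in *A. thaliana*. *RAD51B*, of homologous recombination, had 3.48-fold and the gene of a RecQ-like helicase, which unwinds DNA, 3.45-fold. Only the *CYCD1-1* peak had a q-value of 0.01 or less (0.00959). By the authors' classes the peaks of *CYCD3-3*, *KIN-8A*, *KIN-10A* and *RAD51B* were distal intergenic. That of the RecQ-like gene lay in an intron of another gene. The peaks of *CYCD1-1*, *CYCA2-2* and *KIN-14I* were in promoters.

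Among the 4 genes grouped here under cell wall the values were split. Whether *BGLU42* acts on the cell wall was not established here. *BGLU42*, a beta-glucosidase gene, had the highest fold enrichment of all 43 listed peaks, 6.04 on 6 fragments at tig00006938:221747-222157, which was distal intergenic. *FLA14*, which encodes a fasciclin-like arabinogalactan protein of the cell surface, had 4.54-fold on 4 fragments downstream of the gene, at tig00001017:218809-219214. The genes of endoglucanase 12, an enzyme acting on cellulose chains, and of a polygalacturonase, which cuts pectin, had promoter peaks on 3 fragments with 3.39-fold and 3.37-fold.

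Of the 5 genes of signalling and defence, 3 had a peak of 4-fold or more, all on 4 fragments. This was 60% (14.7% to 94.7%), against 37.1% of all peaks. The gene of a receptor-like kinase (Cor0099100.1) had 4.54-fold at tig00007105:1850855-1851156 and was the only one of the group with a neighbouring Ov3.1 peak within 10 kb. The gene of an F-box protein (Cor0022550.1), of the class that selects proteins for ubiquitination, had 4.54-fold at tig00006985:1530218-1530508. NB-ARC proteins are immune receptors, and of their 2 genes Cor0155580.1 had 4.24-fold in its promoter and Cor0034420.1, like RPP13, had 3.43-fold. *PIRL3*, which encodes a leucine-rich repeat protein, had 3.48-fold in its promoter. The peaks of the receptor-like kinase gene, the F-box gene and Cor0034420.1 were distal intergenic.

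The remaining 17 listed genes had a median of 3.63-fold and a range of 3.30 to 5.69. Of them, 7 reached 4-fold (41.2%, 18.4% to 67.1%), against 37.1% of all peaks. *NPGR1* (Cor0110720.1), related to a calmodulin-binding protein needed for pollen germination in *A. thaliana*, had a distal intergenic peak, tig00007074:1442101-1442453, with 3.39-fold on 3 fragments. The highest of the 17, singled out after its value was seen, was the distal intergenic peak of Cor0112100.1 with 5.69-fold on 6 fragments.

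**Figure D5:**
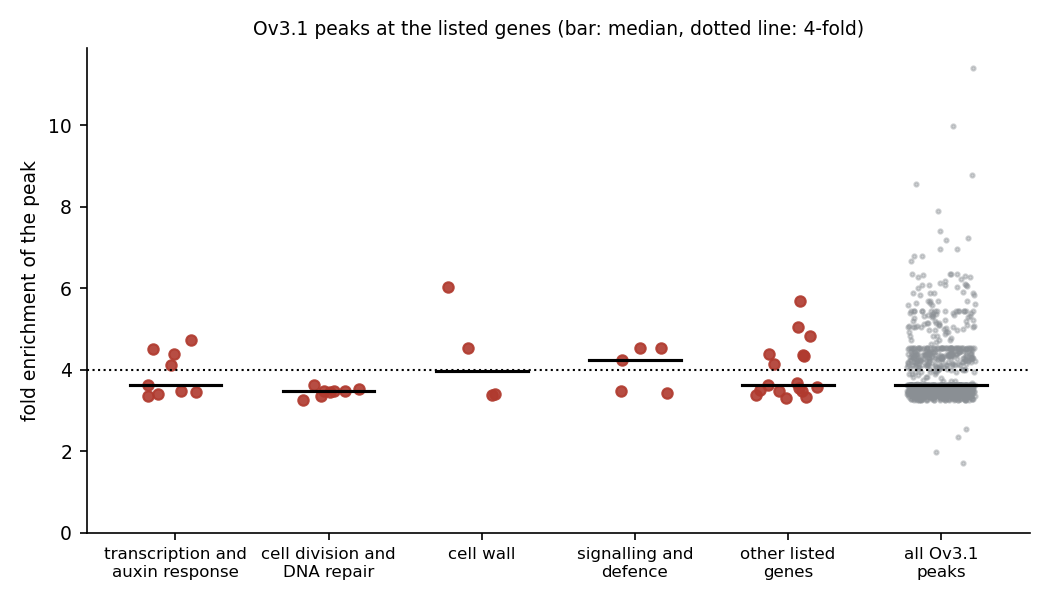
Fold enrichment of the Ov3.1 peaks at the 43 listed genes by group (red) and of all 893 Ov3.1 peaks (grey). Each dot is a peak, bars are medians and the dotted line marks 4-fold. All 8 cell division and DNA repair genes lie below the line, and 16 of the 43 genes lie above it.

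The pathways that the study assigned to the genes nearest to Ov3.1 peaks were phenylpropanoid biosynthesis, terpenoid backbone biosynthesis, plant hormone signal transduction, plant-pathogen interaction, phosphatidylinositol signaling, and a pathway named for aldosterone synthesis, a hormone of animals. Phenylpropanoids include lignin precursors and flavonoids, and the terpenoid backbone pathway feeds the synthesis of gibberellins and abscisic acid. Which genes entered each pathway was not analysed here, because the closest gene of a peak was used only for the 43 listed genes. Of those genes, *IAA4* and *CYCD3-3* carry identifiers that belong to plant hormone signal transduction, as a component of auxin signalling and as a cyclin that responds to brassinosteroid. Their peaks had 4.38-fold on 4 fragments and 3.48-fold on 3 fragments.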

How the data were processed

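ChARF3 ChIP-Seq peaks of Ov3.1 were analysed from the deposited list, with the Ov2.1 and Ov1.1 lists as references. By the methods of the study, the authors passed reads through the NGS QC Toolkit before alignment with Bowtie2 against the hazel genome in the HazelOmics Database. MACS2 then called peaks, with 0.05 as the limit on q. Not given in the sources used here are tool versions, the genome release and how duplicate reads were treated, which can alter backgrounds and calls. Per peak, the authors deposited 1-based start and end positions, a score, a fold enrichment (a linear ratio) and -log10 p and -log10 q. The deposited score is the whole part of 10 times -log10 q, up to 1000, and was not used.

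Fragments and background were solved from fold enrichment, taken as (fragments + 1)/(background + 1), and p, taken as the Poisson probability of more than that number. The solver and the comparison of positions were tested on simulated data. Gaps are the bases between neighbours on a contig, and peaks sharing 1 bp or more were counted as overlapping. Closest genes, classes and the gene and pathway names are those of the study. Its table of closest genes for all Ov3.1 peaks was not used here, nor was genome sequence.

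Members, gene groups and limits were chosen with earlier results of these data known. The genes named are those the study lists for Ov3.1 with a symbol and those in the 4 groups described. The peaks named are the first 5 in fold enrichment and in -log10 q and the 3 widest, and the 3 contigs with most peaks are named. Others were named after their values were seen. Alternatives were stricter limits, tig00007282 left out, merged peaks and other distances, overlaps and Poisson tail. Scripts ran in Python 3.11.15 with pandas 2.3.3, numpy 2.4.6, matplotlib 3.10.9 and scipy 1.17.1.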

Additional observations from a re-analysis of the deposited data

How the results depend on the processing

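With 1 ChIP library, no left-out replicate could be tried. No paired analysis was possible because each stage has 1 ChIP library and no test was made. Of 51 alternatives over 11 results, 25 stayed within the interval, or for numbers within 1.5 times. Leaving out tig00007282 changed the Ov2.1 overlaps to 4 of 19, and no other result left these limits. Peaks at a q-value of 0.01 or less numbered 527, with a median gap of 291014 bp, 6.07% with a neighbour within 10 kb, a median fold enrichment of 4.27 and a median of 4 fragments. At 0.001 there were 179 peaks on 99 contigs, with 7.82% on tig00007282, a median width of 357 bp, a median gap of 421662 bp, a median fold enrichment of 5.09 and a median of 5 fragments. At a fold enrichment of 4 or more there were 331 peaks on 146 contigs, with a median gap of 342089 bp and 4.23% with a near neighbour. Merging peaks within 1 kb left 1.36% of peaks on tig00007282, and counting bases gave 4.13%. Peaks with a neighbour were 5.04% within 5 kb and 14.1% within 20 kb. Overlaps with Ov2.1 peaks numbered 8 when 50% of both had to be shared and 29 within 1 kb, and with Ov1.1 peaks 13 within 1 kb. Of the listed peaks, 3 reached 5-fold, against 11.4% of all peaks. With p read as the chance of the solved number or more, the result was a median of 13 fragments, and the listed p was met within 0.01 in 74 of 893 peaks, against 893 with the reading used.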
